A study of Arabidopsis thaliana with 9 samples.

Results

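The 10 floral organ identity genes of the MADS-box family were followed through messenger RNA libraries of inflorescence meristems of Arabidopsis thaliana. They are APETALA1 (AP1), CAULIFLOWER (CAL), APETALA3 (AP3), PISTILLATA (PI), AGAMOUS (AG), SEEDSTICK (STK) and the SEPALLATA genes SEP1, SEP2, SEP3 and SEP4. They were taken by locus identifier and make up 10 of the 25760 genes in the count table, and all 10 passed the filter on low counts. Among the genes listed, col-0 replicate 1 has 0 without a read while the other libraries have 932 to 1540, so the table may leave out genes that had no read in that library. The 9 libraries came from 3 genotypes with 3 libraries each: col-0, the wild type; csld5, a mutant of the cellulose synthase-like gene CSLD5; and pATML1::GFP+CSLD5-csld5, in which the csld5 mutant carries CSLD5 under the promoter of ATML1, a gene of the epidermal layer. The last group is called complemented here. Every complemented library therefore shares the csld5 background of the mutant libraries. The labels give no plant age, csld5 allele or number of transgenic lines, and do not state that replicate libraries stem from different plants, so p-values cover only library-to-library spread, which may be technical.

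In flowering plants, MADS-box transcription factors act in combinations that give each whorl of the flower its identity. Class A factors act in sepals and petals, class B in petals and stamens, class C in stamens and carpels, and class D in ovules, and the class E SEPALLATA proteins join the others in protein complexes. AP1 and CAL also act earlier, when a primordium on the flank of the inflorescence meristem takes on floral fate. In Arabidopsis, transcripts of most of these genes mark young flowers rather than the dome of the inflorescence meristem itself.

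CSLD5 followed the labels: its normalised level, in CPM (read counts scaled to a common library size), was 126.5 to 135.2 for col-0, 26.8 to 28.1 for csld5 and 856 to 1013 for complemented libraries. Library totals ran from 35543318 to 45679471 counts, and each of the 10 genes had between 535 and 18697 counts in a library. The meristem genes STM (45.9 to 61.0 CPM) and CLV1 (38.4 to 49.3 CPM) were detected in all 9 libraries. CLV3, the signal peptide gene of the stem cells at the tip, had 6 reads over the 3 col-0 libraries, 0 over the csld5 libraries and 4 over the complemented libraries, and its deposited TPM were at most 0.249 or missing. Counts can be low for a gene with high deposited TPM in these tables: SPL3, an activator of floral identity genes, had 0 to 3 counts a library but 356 to 619 TPM, and was not tested. The late pollen genes VGD1 (99.1 to 324.3 CPM) and PPME1 (47.0 to 118.1 CPM) were also present in all 9. In these bulk libraries fewer cells of a type and less RNA per cell cannot be told apart.

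The 10 genes lie on all 5 chromosomes of the RefSeq TAIR10.1 assembly: AP1 (AT1G69120), CAL (AT1G26310) and SEP3 (AT1G24260) on chromosome 1, SEP4 (AT2G03710) on chromosome 2, AP3 (AT3G54340) and SEP2 (AT3G02310) on chromosome 3, AG (AT4G18960) and STK (AT4G09960) on chromosome 4, and PI (AT5G20240) and SEP1 (AT5G15800) on chromosome 5. Their models hold 5 to 9 exon blocks and 1214 to 2369 exon bases. AP1 and CAL are close paralogs. Of their exon stretches of 50 bases, 0.464% (AP1) and 0.589% (CAL) also occur in the exons of another gene, and for the other 8 the share was 0. Of stretches of 100 bases, none of the 10 genes shared any. The exons of STK overlap those of AT4G09950 on the opposite strand over 186 bases (7.85% of its exon length). SEP1 overlaps AT5G15790 over 100 bases (6.51%) and the non-coding gene AT5G02455 over 449 bases (29.3%), both on the opposite strand. No source used here gives the strand setting of the counting, and the values of STK and SEP1 could include reads of these neighbours.

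The 250 bases upstream of each annotated start are shown for 4 genes. AP1 and CAL are shown because they hold CCANTG, the core sequence bound by the floral activator LEAFY, and STK and SEP1 because their levels differed most between genotypes. The windows lie at chr1:25986350-25986599 (AP1), chr1:9103645-9103894 (CAL), chr4:6241282-6241531 (STK) and chr5:5154254-5154503 (SEP1) of TAIR10.1, all on the minus strand, and are written 5′ to 3′ along the gene. Capitals mark CCANTG matches on either strand.
AP1: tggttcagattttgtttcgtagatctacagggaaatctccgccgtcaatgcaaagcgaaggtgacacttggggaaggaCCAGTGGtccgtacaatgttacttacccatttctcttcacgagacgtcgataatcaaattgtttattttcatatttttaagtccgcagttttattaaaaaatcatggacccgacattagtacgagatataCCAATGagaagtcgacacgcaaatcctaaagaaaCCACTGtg
CAL: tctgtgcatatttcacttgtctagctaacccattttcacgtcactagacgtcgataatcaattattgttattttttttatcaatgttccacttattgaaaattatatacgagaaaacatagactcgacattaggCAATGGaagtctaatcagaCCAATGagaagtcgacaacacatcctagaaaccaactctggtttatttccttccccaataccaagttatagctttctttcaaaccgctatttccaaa
STK: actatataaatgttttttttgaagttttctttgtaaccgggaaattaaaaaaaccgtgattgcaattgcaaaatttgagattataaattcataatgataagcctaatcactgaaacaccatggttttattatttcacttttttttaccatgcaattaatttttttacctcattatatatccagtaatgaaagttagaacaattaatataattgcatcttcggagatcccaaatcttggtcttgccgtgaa
SEP1: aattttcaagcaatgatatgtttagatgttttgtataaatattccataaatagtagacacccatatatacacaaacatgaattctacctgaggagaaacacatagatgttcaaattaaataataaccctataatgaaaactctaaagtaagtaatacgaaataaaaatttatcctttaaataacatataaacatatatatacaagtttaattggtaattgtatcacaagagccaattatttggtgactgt
CCANTG occurred 4 times in the AP1 window, where 2 of the matches overlap on opposite strands, 2 times in that of CAL, 1 time each in those of SEP2 and SEP4, and not in those of the other 6 genes. Of all 27443 windows of this length, 20.8% held it. The CArG box, the sequence bound by MADS-box dimers, was searched on both strands and occurred in 2.52% of all windows and in none of the 10. A match is a run of letters and not a measured binding site.

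Deposited TPM, which scale reads by transcript length, order the genes by level. In col-0, SEP3, a class E cofactor of class B and C complexes, was highest at 278.7 TPM and stood above 98.08% of the 25760 genes. The class B pair AP3 (157.4 TPM) and PI (155.4 TPM) came next with overlapping ranges, followed by AP1 (107.1 TPM) and SEP2 (105.4 TPM), whose ranges also overlapped. SEP1 (70.96 TPM), AG (38.46 TPM), SEP4 (17.29 TPM), STK (12.09 TPM) and CAL (8.619 TPM) followed with ranges apart from one another. CAL lay at the percentile 43.37, in a set whose other members spanned 51.41 to 98.08. The order of the first 8 was the same in csld5 by mean, while STK (8.282 TPM) and CAL (8.292 TPM) had overlapping ranges there. When TPM were recomputed from the deposited counts and RefSeq exon lengths, every gene except SEP1 had a higher col-0 value. AG (82.19 TPM) then stood above SEP1 (67.0 TPM), and PI (270.9 TPM) above AP3 (238.0 TPM). The col-0 ranges of CAL (20.9 TPM) and STK (20.87 TPM) overlapped, and those of AP1 and SEP2 were apart. In csld5, CAL (20.12 TPM) and STK (14.58 TPM) had ranges apart. The order within those pairs, or whether their ranges overlap, depends on how TPM were made.

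**Figure D1:**
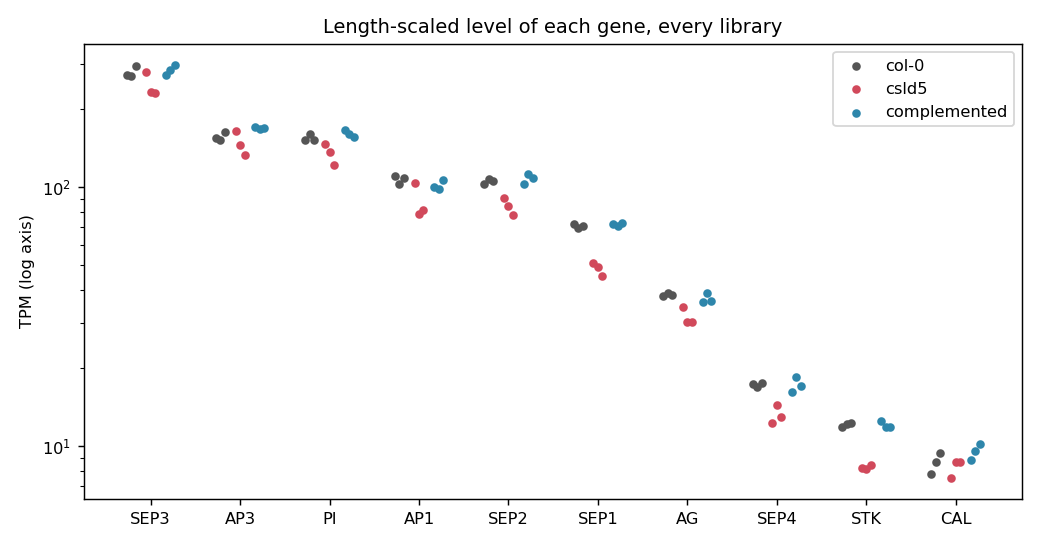
Deposited TPM (vertical axis, log scale) of the 10 genes in each of the 9 libraries, with genes ordered by their col-0 mean and libraries coloured by genotype. The genes span levels from SEP3 at 278.7 TPM to CAL at 8.619 TPM in col-0, and the csld5 points of STK and SEP1 lie below all others of the same gene.

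Summed over the 10 genes, TPM reached 939 to 975 for col-0, 752 to 901 for csld5 and 961 to 988 for complemented libraries, so the csld5 range lay below both others. The SEPALLATA genes supplied 48.3% to 50.2% of this sum in the 9 libraries. Within the SEPALLATA sum, SEP1 held 14.4% to 15.6% for col-0, 11.7% to 12.9% for csld5 and 14.5% to 15.5% for complemented libraries. SEP3 held 57.9% to 60.4% for col-0, 61.2% to 64.5% for csld5 and 58.6% to 60.1% for complemented libraries. These shares depend on the TPM used: with TPM recomputed from counts SEP1 held 8.78% to 9.43% for col-0, 7.53% to 8.16% for csld5 and 8.79% to 9.44% for complemented libraries.

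The first comparison asks how the mutant differs from the wild type. Of the 10 genes, 6 fell in csld5 (AP1, PI, STK, SEP1, SEP2 and SEP4) and 0 rose, by edgeR's quasi-likelihood F test at a Benjamini-Hochberg adjusted p below 0.05. Across all 22671 genes tested, 41.5% were called, 20.4% of them lower and 21.1% higher as shares of the genes tested. At an unadjusted p below 0.05, 7 of the 10 were lower and 0 higher. Shares of all genes at an unadjusted p were not computed for any comparison. DESeq2 called 6 lower, against 20.1% of all genes lower and 22.2% higher. Limma on log2(TPM + 1) called 7 lower, against 21.9% of all genes lower and 21.4% higher. Both called 0 of the 10 higher. The median log2 fold change of the 10 genes was -0.245, against -0.02 for all genes tested. The falls were modest, from 0.21 to 0.52 on the log2 scale.

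Over all genes, the fold change in this comparison moved with exon GC content (Spearman's rho 0.403 over all genes) and with exon length (rho 0.369). The 10 genes are AT-rich: their exon GC content ranged from 34.1% (AG) to 39.7% (SEP2), at percentiles 1.93 to 28.6 of the genes tested. A smooth curve on GC content and length fitted to each library gave csld5 minus col-0 values between -0.112 (SEP2) and -0.3 (AG) at the positions of these genes. With that curve as an offset, 3 of the 10 stayed lower (STK, SEP1 and SEP2), 0 were higher, and the median was -0.0684. At an unadjusted p below 0.05 with the offset, 4 were lower and 1 higher. The background with the offset was 32.9% of 22580 genes called, with 17.4% lower and 15.4% higher. The 10 genes are therefore given below with both values in each comparison that involves csld5.

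**Figure D2:**
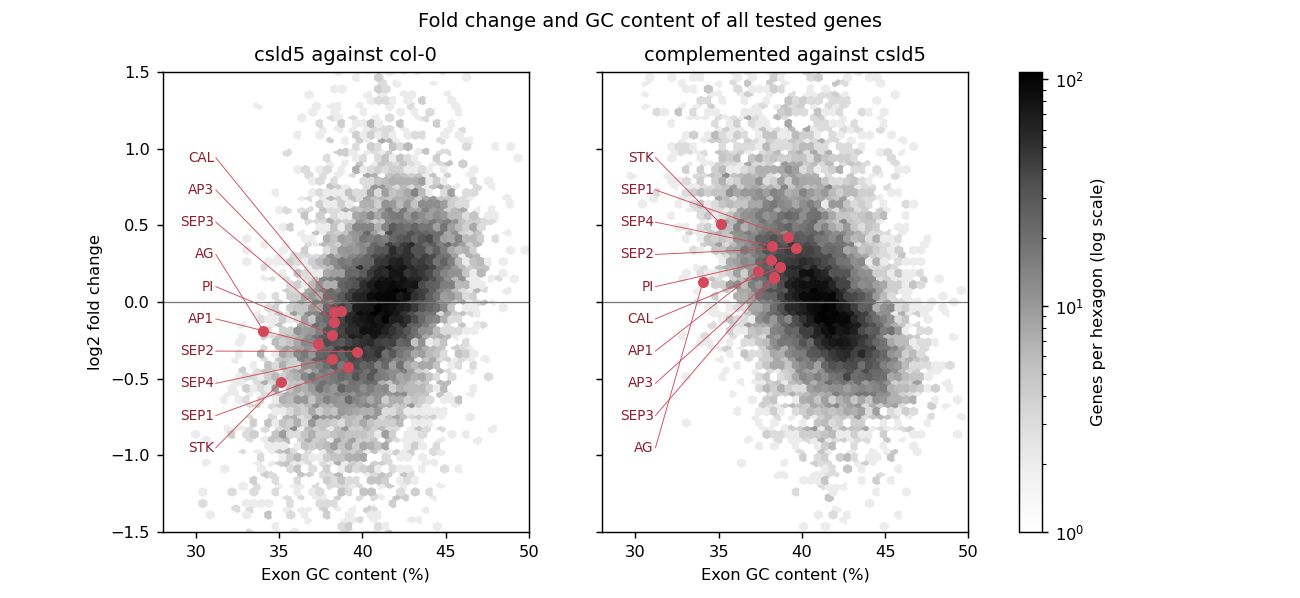
Fold change (vertical axis, log2, shown from -1.5 to 1.5) against exon GC content (horizontal axis, %) for all tested genes as shaded hexagons, with the 10 floral organ identity genes as red points. In the left panel, csld5 against col-0, the cloud rises with GC content (rho 0.403) and in the right panel it falls (rho -0.463), and the 10 genes lie on its AT-rich side.

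STK, the class D gene that gives ovules their identity, had 30.43, 31.57 and 32.48 CPM in col-0, 22.94, 21.53 and 21.47 CPM in csld5, and 32.87, 30.54 and 30.45 CPM in complemented libraries. All csld5 values lay below all 6 others, and the csld5 mean was 69.8% of the col-0 mean. The fold change in csld5 was -0.52 ± 0.06 (log2, SE, edgeR adjusted p = 3.74e-05), and -0.31 ± 0.06 with the GC and length offset (adjusted p = 0.00108). Between complemented and csld5 libraries it was 0.51 ± 0.06 (adjusted p = 5.4e-05), and 0.21 ± 0.06 with the offset (adjusted p = 0.0149). STK had the largest change of the 10 genes in both comparisons without the offset. The second of these calls was lost with the offset when complemented replicate 1 was left out, where the value was 0.20.

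SEP1, a class E gene that acts redundantly with the other SEPALLATA genes, had 66.06, 64.3 and 66.2 CPM in col-0, 53.23, 48.18 and 45.05 in csld5, and 66.06, 64.33 and 66.34 in complemented libraries. The csld5 libraries were again the lowest 3, at 74.51% of the col-0 mean. SEP1 fell in csld5 by 0.42 on the log2 scale (SE 0.06, edgeR adjusted p = 0.000159) and by 0.30 with the offset (adjusted p = 0.001). It was higher in complemented than in csld5 libraries by 0.43 ± 0.06 (adjusted p = 0.000179), or 0.27 ± 0.06 with the offset (adjusted p = 0.00327). Its call in both comparisons held under each of the 30 other settings tried.

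SEP2, the closest relative of SEP1 among these genes, had 162.7, 166.5 and 167.6 CPM in col-0, 147.5, 131.0 and 118.6 in csld5, and 162.0, 176.1 and 169.5 in complemented libraries. The csld5 values did not overlap those of either other genotype. The fold change in csld5 was -0.32 ± 0.07 (edgeR adjusted p = 0.00285), and -0.21 ± 0.07 with the offset (adjusted p = 0.0225). Complemented against csld5 gave 0.35 ± 0.07 (adjusted p = 0.00162), and 0.22 ± 0.07 with the offset (adjusted p = 0.0268). With the offset, the first call was lost without col-0 replicate 1 (-0.22), col-0 replicate 3 (-0.20), csld5 replicate 2 (-0.19) or csld5 replicate 3 (-0.16). The second was lost with the offset without csld5 replicate 2 (0.19) or 3 (0.16), or complemented replicate 2 (0.18) or 3 (0.20).

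SEP4, which also contributes to sepal and floral meristem identity, had 24.92, 23.33 and 24.68 CPM in col-0, 18.43, 20.45 and 17.59 in csld5, and 23.0, 25.36 and 24.4 in complemented libraries. The csld5 libraries stood below the other 6. SEP4 changed by -0.37 ± 0.07 in csld5 (edgeR adjusted p = 0.00155) and by 0.37 ± 0.07 between complemented and csld5 (adjusted p = 0.00171). With the offset the values were -0.20 ± 0.07 (adjusted p = 0.0575) and 0.14 ± 0.07 (adjusted p = 0.174), and neither was called.

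SEP3, the most abundant of the 10 genes, had 368.0, 355.9 and 407.8 CPM in col-0, 402.4, 321.8 and 311.3 in csld5, and 369.7, 383.4 and 401.2 in complemented libraries. In csld5, replicate 1 lay within the col-0 range and the others lay below it. The fold change of -0.13 ± 0.09 in csld5 was not called (edgeR adjusted p = 0.264), nor was the value of 0.09 ± 0.08 with the offset (adjusted p = 0.455). Complemented against csld5 gave 0.16 ± 0.09 (adjusted p = 0.172) and -0.11 ± 0.08 with the offset (adjusted p = 0.337). Without csld5 replicate 1 and without the offset, SEP3 passed the test in both comparisons, at -0.24 and 0.27.

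**Figure D3:**
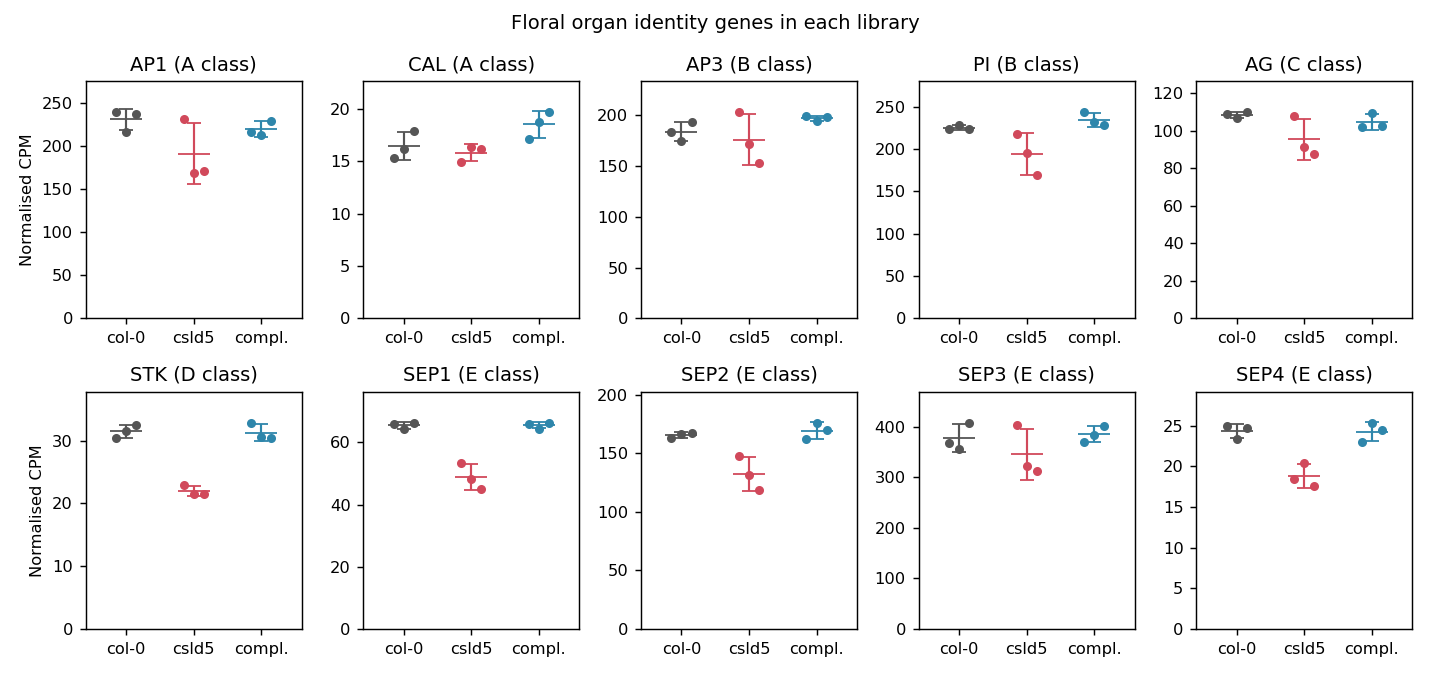
Normalised CPM (vertical axes, each from 0) of the 10 genes in each library, with genotypes along the horizontal axis, a long bar at each mean and whiskers for the SD (n = 3). The csld5 points lie below the other 6 libraries for PI, STK, SEP1, SEP2 and SEP4, and csld5 replicate 1 lies highest of the csld5 libraries for 8 of the 10 genes.

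AG, the class C gene that specifies stamens and carpels and ends floral meristem activity, had 109.1, 107.0 and 110.1 CPM in col-0, 107.8, 91.36 and 87.4 in csld5, and 102.1, 109.6 and 102.4 in complemented libraries. One csld5 library lay within the col-0 range and the others lay below it. The fold change of -0.19 ± 0.07 in csld5 missed the threshold (edgeR adjusted p = 0.0529), and passed it without csld5 replicate 1 (-0.27), with limma on log2(TPM + 1) (-0.28), with library totals (-0.27) and with a filter of 1 CPM in 3 libraries (-0.20). With the offset the value was 0.11 ± 0.06 (adjusted p = 0.204). For complemented against csld5 AG had 0.13 ± 0.07 (adjusted p = 0.159) without the offset and -0.29 ± 0.06 with it (adjusted p = 0.00428), so the direction turned and AG was called lower. Without the offset, AG was called higher in this comparison with library totals (0.23), limma on log2(TPM + 1) (0.23) and without csld5 replicate 1 (0.22). AG has the lowest GC content of the 10 genes, 34.1%, and the curve's own difference there was 0.429 on the log2 scale.

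AP3 and PI encode the class B proteins, which bind DNA as a heterodimer and specify petals and stamens. PI had 224.0, 228.5 and 223.1 CPM in col-0, 218.2, 195.1 and 169.3 in csld5, and 243.7, 231.7 and 228.2 in complemented libraries. Its csld5 libraries were the lowest 3, though the highest of them lay close to col-0. PI fell in csld5 by 0.21 on the log2 scale (SE 0.08, edgeR adjusted p = 0.0384) and was higher by 0.27 ± 0.08 in complemented against csld5 (adjusted p = 0.012). With the offset both values were near 0, at -0.0023 ± 0.0566 (adjusted p = 0.979) and 0.0033 ± 0.0566 (adjusted p = 0.973). The call in csld5 was also lost without col-0 replicate 1 (-0.22), 2 (-0.20) or 3 (-0.21), csld5 replicate 2 (-0.22) or 3 (-0.12), or complemented replicate 2 (-0.21), and in a fit of the 2 genotypes alone (-0.22). The second call was lost without complemented replicate 1 (0.24).

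AP3 had 183.2, 175.2 and 194.0 CPM in col-0, 203.4, 172.0 and 153.2 in csld5, and 199.2, 194.5 and 198.0 in complemented libraries. The csld5 values ran from the highest to the lowest of all 9. No call was made in csld5 (-0.06 ± 0.08, edgeR adjusted p = 0.575) or in complemented against csld5 (0.16 ± 0.08, adjusted p = 0.138). With the offset the values were 0.17 ± 0.07 (adjusted p = 0.0841) and -0.13 ± 0.07 (adjusted p = 0.197). It was called under other settings: without csld5 replicate 1 the second comparison passed at 0.27, limma on log2(TPM + 1) called it at 0.20, and with the offset and without col-0 replicate 3 the first passed in the higher direction at 0.22.

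AP1, which gives floral meristem identity and sepals and petals, had 240.1, 217.3 and 237.2 CPM in col-0, 232.2, 169.5 and 171.8 in csld5, and 217.1, 212.8 and 230.1 in complemented libraries. One csld5 library lay within the col-0 range, while the others lay below all 7 remaining libraries. The fall of 0.28 in csld5 (log2, SE 0.10) had an edgeR adjusted p = 0.0396, and with the offset the value was -0.13 ± 0.09 (adjusted p = 0.257). The call was lost without col-0 replicate 1 (-0.25) or 3 (-0.25), csld5 replicate 2 (-0.20) or 3 (-0.20), or complemented replicate 1 (-0.28) or 2 (-0.28), and in a fit of the 2 genotypes alone (-0.28). For complemented against csld5 AP1 gave 0.20 ± 0.10 (adjusted p = 0.12), which passed without csld5 replicate 1 (0.36), and 0.01 ± 0.09 with the offset (adjusted p = 0.959).

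CAL, the paralog of AP1 that shares its role in floral meristem identity, had 15.34, 16.2 and 17.92 CPM in col-0, 14.89, 16.41 and 16.16 in csld5, and 17.18, 18.72 and 19.72 in complemented libraries. The csld5 and col-0 ranges overlapped, and the complemented libraries all lay above csld5. CAL was not called in csld5 (-0.06 ± 0.09, edgeR adjusted p = 0.62) and was higher in complemented against csld5 by 0.23 ± 0.09 (adjusted p = 0.0472). With the offset this value was -0.04 ± 0.10 (adjusted p = 0.783). The call was also lost without csld5 replicate 1 (0.18), 2 (0.25) or 3 (0.24), complemented replicate 2 (0.22) or 3 (0.18), or col-0 replicate 2 (0.23), and with DESeq2 (0.22) or limma on log2(TPM + 1) (0.18).

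**Figure D4:**
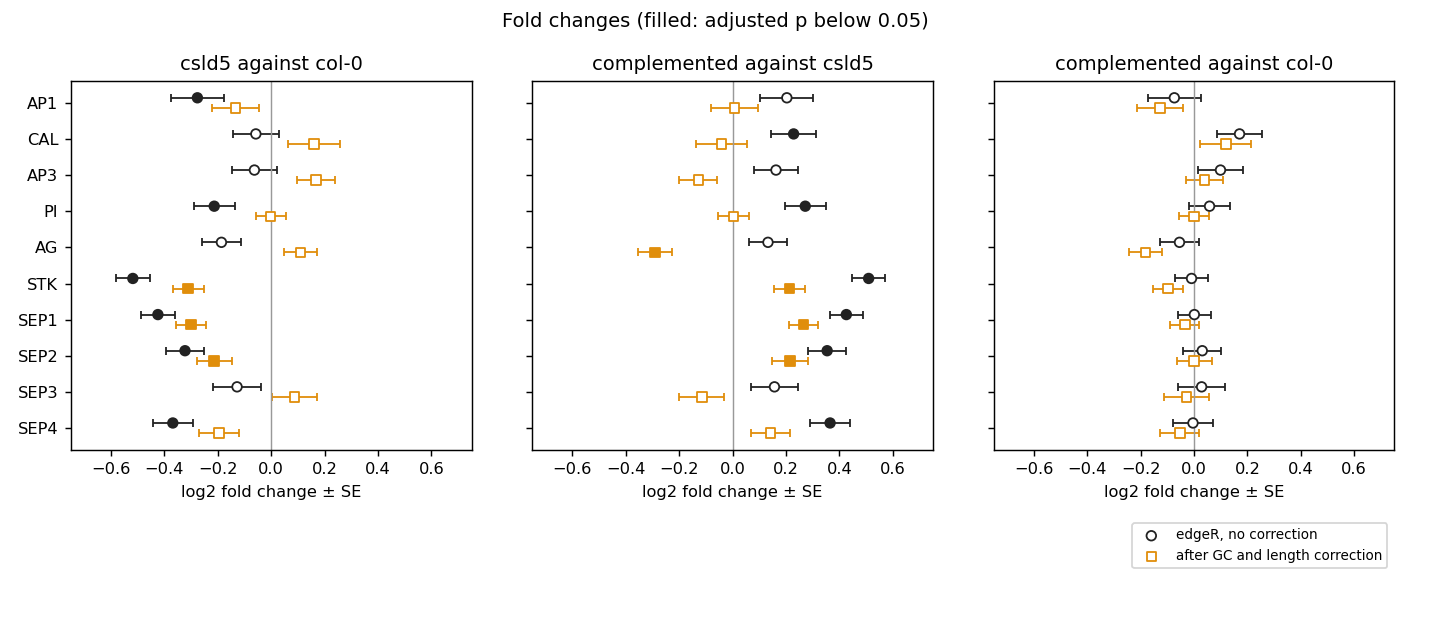
Log2 fold change with its standard error (horizontal axes) of the 10 genes in the 3 comparisons, without (circles) and with (squares) the GC and length offset, filled where the edgeR adjusted p was below 0.05. Filled points of both kinds occur for STK, SEP1 and SEP2 in the first and second comparisons, AG is filled only as a square, at -0.29, and the third comparison has no filled points.

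The second comparison asks whether expression of CSLD5 from the ATML1 promoter alters levels in the csld5 background, and uses the same csld5 libraries as the first. Of the 10 genes, 6 were higher in complemented than in csld5 libraries (CAL, PI, STK, SEP1, SEP2 and SEP4) and 0 were lower by edgeR, with a background of 40.9% of all genes called, 19.8% higher and 21.1% lower. At an unadjusted p below 0.05 the counts were also 6 and 0. DESeq2 called 5 higher and limma on log2(TPM + 1) called 7 higher, with 0 lower by either. Of all genes, DESeq2 called 19.9% higher and 21.9% lower, and limma 21.9% higher and 21.2% lower. The median of the 10 genes was 0.25, against 0.0165 for all genes tested. With the GC and length offset 3 were higher (STK, SEP1 and SEP2) and 1 was lower (AG), with a median of 0.00549 and a background of 26.3% called, 11.1% higher and 15.2% lower. Scaling by library totals shifted the median of all genes to 0.112 here and to -0.102 in the first comparison, and all 10 genes were then called higher in complemented libraries, against 28.3% of all genes higher and 14% lower at that scaling.

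The third comparison sets complemented against col-0. No gene of the 10 was called by edgeR, DESeq2 or limma on TPM, none had an unadjusted p below 0.05, and the background was 1.53% of all genes (0.948% higher and 0.578% lower). The log2 fold changes ranged from -0.07 ± 0.10 (AP1, edgeR adjusted p = 0.861) to 0.17 ± 0.09 (CAL, adjusted p = 0.49). For SEP1 the value was 0.0014 ± 0.0621 and for STK it was -0.0091 ± 0.0617. With the offset 0 of the 10 were called, against a background of 2.0% (1.03% higher and 0.97% lower), 1 had an unadjusted p below 0.05, and AG had the largest difference, -0.18 ± 0.06 (adjusted p = 0.189).

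Ranges of normalised CPM were also compared. By these alone, 5 of the 10 genes (PI, STK, SEP1, SEP2 and SEP4) had every csld5 library below every col-0 library, against 25.8% of all genes tested, and 0 the reverse, against 25.1%. In the second comparison, 6 genes (CAL, PI, STK, SEP1, SEP2 and SEP4) had every complemented library above every csld5 library, against 25.9% of all genes, and 0 the reverse, against 25.7%. In complemented against col-0 this held for AP3, against 9.29% of all genes, and the reverse for 0 genes, against 10.3%. By ranges of deposited TPM, AG also lay wholly lower in csld5 than in col-0. AG and AP3 also lay wholly higher in complemented than in csld5 libraries. Shares of all genes by ranges of TPM were not computed.

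Library csld5 replicate 1 was the highest of the 3 csld5 libraries for 8 of the 10 genes, and csld5 replicate 3 the lowest for 8. The coefficient of variation in csld5 reached 18.59% for AP1 and 14.43% for SEP3, while in col-0 it was 5.356% and 7.199%. The curve on GC content and length had an R2 of 0.0918 in csld5 replicate 1 and 0.339 in csld5 replicate 3, and its part in this spread was not tested. Without csld5 replicate 1 and without the offset, 8 of the 10 genes were called in the first comparison and 9 in the second. Under the same setting 41.1% and 40.9% of all genes were called. With the offset, leaving out any 1 library gave 2 to 4 of the 10 in the first comparison and 3 to 4 in the second. Of the 22772 to 22898 genes tested in those fits, 5463 to 7103 were called in the first comparison and 4303 to 6032 in the second.

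Count ratios between pairs of these genes are free of scaling between libraries. The AG to STK count ratio was 3.58, 3.39 and 3.39 in col-0, 4.7, 4.24 and 4.07 in csld5, and 3.11, 3.59 and 3.36 in complemented libraries, so the csld5 libraries were the highest. The SEP1 to SEP3 count ratio was 0.179, 0.181 and 0.162 in col-0, 0.132, 0.15 and 0.145 in csld5, and 0.179, 0.168 and 0.165 in complemented libraries, and here csld5 was the lowest. AP3 to PI was 0.767 to 0.869 in col-0 and 0.882 to 0.932 in csld5, without overlap. Each of these csld5 against col-0 differences had an exact two-sided permutation p = 0.1, the smallest that 3 against 3 libraries allow, and an adjusted p of 0.225 over 18 tests. The SEP1 to SEP2 ratio was also lower in csld5 without overlap, at the same p. The ratios of AP1 to CAL (permutation p = 0.3) and SEP3 to SEP4 (permutation p = 0.2) overlapped between csld5 and col-0. The 2 genes of a pair also differ in GC content and length.

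Across the 9 libraries, SEP2 (r = 0.977) and SEP1 (r = 0.952) followed the mean profile of the other 9 genes most closely, and CAL least (r = 0.397). These r values describe libraries that share genotype and scaling. Outside the 10 genes, RbcX1 (r = 0.997), AT2G35830 (r = 0.9926), LSF2 (r = 0.9897), PnsB5 (r = 0.9891) and AT2G44310 (r = 0.9889) had the profiles most like their mean over the 9 libraries.

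Of 12 upstream activators tested, 4 rose in csld5 and 1 fell by edgeR, a share near the 41.5% of all genes called, and with the offset 3 rose and 2 fell. WUS, which maintains stem cells and activates AG, had 14.07, 13.59 and 19.38 CPM in col-0 and 29.29, 20.48 and 20.91 in csld5, a rise of 0.59 ± 0.16 (adjusted p = 0.0093) that was 0.55 with the offset (adjusted p = 0.023). PAN, a bZIP factor that also activates AG, fell by 0.48 on the log2 scale (SE 0.13, adjusted p = 0.011) and by 0.59 with the offset, and HUA2, an RNA-processing factor acting on AG, rose by 0.62 ± 0.11 (adjusted p = 0.00065), or 0.24 with the offset. The others that rose were the chromatin remodeller gene SYD (0.52 ± 0.13) and HEN4, an RNA-binding protein gene acting on AG transcripts (0.32 ± 0.07). With the offset SYD stood at 0.18 and was not called (adjusted p = 0.063), and HEN4 stood at 0.21 (adjusted p = 0.023). LFY, the activator of AP1, CAL, AP3 and AG, had 4.66 to 5.79 CPM in col-0 and 3.49 to 4.15 in csld5, without overlap. Its value of -0.41 ± 0.17 had an adjusted p = 0.075, and -0.77 with the offset was called (adjusted p = 0.0037). UFO, the cofactor of LFY at AP3, was at 0.108 to 0.645 CPM in the 9 libraries and gave -0.38 ± 0.56.

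Of 18 repressors of these genes, 5 rose in csld5 and 2 fell by edgeR, also near the share of all genes. With the offset 1 rose (SOC1) and 1 fell (LHP1). The corepressor gene TPL rose by 0.35 ± 0.07 (adjusted p = 0.0015), the homeobox gene PNY by 0.45 ± 0.09 (adjusted p = 0.0011) and the Polycomb gene SWN by 0.26 ± 0.05 (adjusted p = 0.0019). With the offset they stood at 0.11 each, and none of these was called. LHP1, a chromatin protein of the Polycomb pathway, fell by 0.22 on the log2 scale (SE 0.07, adjusted p = 0.017) and by 0.33 with the offset. AP2, the class A gene that restricts AG, had 57.0 to 64.0 CPM in col-0 and 60.0 to 64.4 in csld5, and its value of 0.07 ± 0.06 was not called (adjusted p = 0.38).

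Among 13 tested genes known as targets of the floral MADS-box factors, 6 fell in csld5 and 0 rose by edgeR. Across all genes, 20.4% were called lower and 21.1% higher. The list does not separate genes that these factors activate from genes they repress. The same counts of targets held with the offset, against 17.4% of all genes lower and 15.4% higher. At an unadjusted p below 0.05, 7 of the 13 were lower and 0 higher. GNC, a GATA factor gene repressed by AP3 and PI, fell by 0.60 on the log2 scale (SE 0.10, adjusted p = 0.00029). NAP, a NAC gene downstream of AP3 and PI, fell by 0.73 (SE 0.18, adjusted p = 0.0055), and CRC, a carpel and nectary gene downstream of AG, by 0.22 (SE 0.08, adjusted p = 0.032). With the offset GNC (-0.52), NAP (-0.51) and CRC (-0.26) were still called. The others were JAG, TEM1 and TEM2. Of the 13, 3 were higher and 0 lower in complemented against csld5 (unadjusted p: 4 and 0): CRC (0.39 ± 0.08), GNC (0.39 ± 0.10) and JAG (0.70 ± 0.16). With the offset 2 of the 13 were higher, and GNC, at 0.28, was not called (adjusted p = 0.054). Across all genes, 19.8% were higher and 21.1% lower in that comparison, or 11.1% and 15.2% with the offset. TEM1, a repressor of flowering, stayed lower in complemented against col-0 at -0.91 ± 0.17 (adjusted p = 0.016), or -0.92 with the offset (adjusted p = 0.0084).

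Other MIKC-type MADS-box genes were set beside the 10. SOC1, SVP and AGL24 also belong to this family, but were counted among the repressors above and not in this list. Of 20 tested, 9 fell in csld5 and 0 rose by edgeR, with a median of -0.309. With the offset 5 fell and 0 rose, with a median of -0.14. Across all genes, 20.4% were called lower and 21.1% higher, or 17.4% and 15.4% with the offset. At an unadjusted p below 0.05, 10 of the 20 were lower and 0 higher. Outside the list, SOC1 was called higher in csld5 with the offset (0.35 ± 0.05, edgeR adjusted p = 0.00024), but not without it (0.11, adjusted p = 0.145). SVP and AGL24 were not called in csld5 with or without the offset. FUL, a close relative of AP1 and CAL that acts in fruit development, had 69.05, 70.9 and 63.08 CPM in col-0, 47.16, 46.51 and 43.11 in csld5 and 69.32, 68.05 and 63.68 in complemented libraries. FUL fell in csld5 by 0.57 (SE 0.06, adjusted p = 2.1e-05), and its value was -0.37 with the offset (adjusted p = 0.00013). SHP1, a relative of AG and STK that acts in fruit opening, fell by 0.22 (SE 0.08, adjusted p = 0.046), and had -0.03 with the offset. SHP2 (-0.12 ± 0.14) and AGL6 (-0.09 ± 0.08) were not called with or without the offset. Of the 20, 10 were higher and 0 lower in complemented against csld5 (unadjusted p: 12 and 0), and with the offset 2 were higher and 1 lower. Across all genes, 19.8% were higher and 21.1% lower in this comparison, or 11.1% and 15.2% with the offset. Outside the list, AGL24 was called lower here (-0.36 ± 0.10, edgeR adjusted p = 0.013), also with the offset (-0.52, adjusted p = 0.002). SOC1 was called lower only with the offset (-0.28, adjusted p = 0.0018), and SVP was not called with or without it.

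The flowering-time genes MAF4 and MAF5 of the same family were called lower in complemented against col-0 as well as in csld5. In complemented against col-0, 2 of the 20 other MIKC genes tested were lower, against 0.578% of all genes. MAF5 had 26.1 to 31.0 CPM for col-0, 9.09 to 12.2 for csld5 and 8.98 to 12.4 for complemented libraries, so both other genotypes lay below col-0. Its fold change was -1.40 ± 0.13 in csld5 (edgeR adjusted p = 5.3e-06) and -1.47 ± 0.13 in complemented against col-0 (adjusted p = 2.2e-05). MAF4 had -1.40 ± 0.16 and -0.93 ± 0.15 (adjusted p = 0.0062) in the same comparisons. With the offset the values were -1.16 and -1.53 for MAF5 and -1.27 and -0.97 for MAF4, all called. In complemented against csld5, MAF4 was called higher (0.47 ± 0.16, edgeR adjusted p = 0.030) and MAF5 was not called (-0.07 ± 0.13, adjusted p = 0.70). With the offset neither was called in that comparison (0.305 for MAF4 and -0.37 for MAF5).

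**Figure D5:**
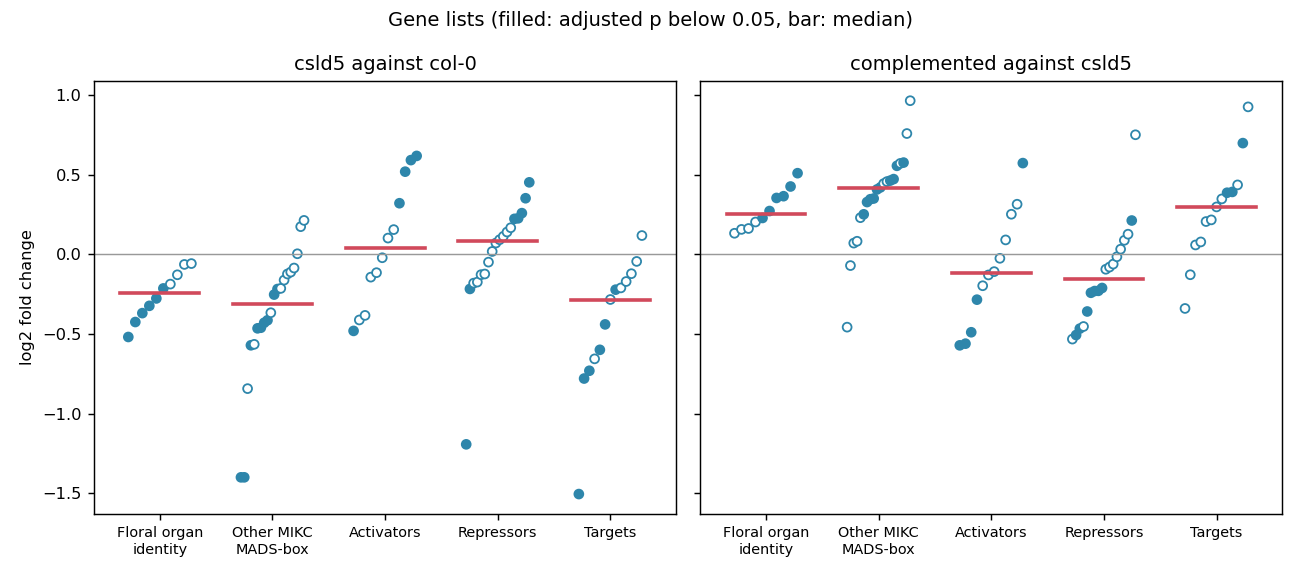
Log2 fold change (vertical axis) of each tested gene in 5 lists, filled where the edgeR adjusted p was below 0.05, with a bar at the list's median, without the GC and length offset. In the left panel, csld5 against col-0, the medians of the 10 floral organ identity genes (-0.245), the other MIKC genes (-0.309) and the targets (-0.283) lie below 0, and in the right panel, complemented against csld5, they lie above 0.

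Markers of tissues that express or lack these genes were read in the same libraries. The summed level of 5 late pollen genes was 163.7 to 256.8 CPM for col-0, 266.3 to 472.6 for csld5 and 230.7 to 268.6 for complemented libraries, and 3 of the 5 rose in csld5. For 6 tapetum genes the sums were 128.6 to 169.6, 95.16 to 157.3 and 162.9 to 205.9 CPM, with 2 lower in csld5 (DYT1 and AT5G07230). For 3 vascular genes they were 30.7 to 38.0, 51.1 to 58.3 and 33.6 to 36.5 CPM, with 1 higher in csld5 (IRX3). Sums of the 4 meristem genes were 178.9 to 181.2, 185.5 to 193.4 and 165.1 to 175.0 CPM, with STM and BP higher and CLV1 and KNAT2 lower in csld5. The 4 ovule and carpel genes summed to 60.4 to 67.6, 61.2 to 69.0 and 62.4 to 64.9 CPM, overlapping between all genotypes, with NTT higher in csld5. The 3 leaf genes summed to 9088 to 10140, 9493 to 10670 and 8801 to 9559 CPM, with LHCB2.1 higher in csld5 and, with the offset, LHCB1.1 lower (-0.22). With the offset, 4 of the late pollen genes were higher and IRX3 and LHCB2.1 stayed called higher, while DYT1 (-0.63), AT5G07230 (-0.31), STM (0.10), KNAT2 (-0.23) and NTT (0.20) were not called. The part of these markers in the differences of the 10 genes was not tested.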

How the data were processed

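Messenger RNA was sequenced in 9 libraries. Unnormalised read counts and TPM of the same genes were deposited by the authors, 1 column per library. The TAIR10 build, HISAT2 2.2.1, Trimmomatic 0.39 and featureCounts 2.0.6 are named per the submitters' processing notes. No source used here gives the annotation, the strand setting or the tool behind the TPM. Of the TPM table, 8616 cells are missing, 0 of them for the 10 genes, and missing cells were set to 0. Groups and replicate numbers came from the sample titles.

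The counts went through edgeR 4.0.16 (R 4.3.3) with its default expression filter, which left 22671 genes, TMM factors and the quasi-likelihood F test. All 9 libraries entered 1 fit, with no term other than genotype. A gene was called at a p below 0.05 after Benjamini-Hochberg adjustment over every gene tested. CPM were scaled by TMM factors. Errors of fold changes are standard errors. No block was used. Only the edgeR fit without the offset was tested on simulated counts, for csld5 against col-0. It recovered 55% of changes of 0.5 on the log2 scale and 100% of changes of 1. It called 0.036% of unchanged genes.

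The GC and length offset was a smooth curve per library (mgcv 1.9.3, bounded at percentiles 1 and 99, prior count 2) on exon GC content and log2 exon length, for 22580 genes. Gene models, positions and upstream sequences were read from the RefSeq TAIR10.1 genome and annotation, which the locus identifiers match for 25637 genes. Alternatives were other scalings and filters, DESeq2 1.42.0, limma 3.58.1 on log2 TPM with pseudocounts of 1 and 0.1, fits of 2 genotypes, a replicate block, TPM recomputed from counts, and leaving out each library. Leaving out each library together with the offset was added after seeing the data.

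The 10 genes, the other lists and the tests were chosen with earlier results of these data known. Named from the other lists were up to 5 called genes of smallest p in csld5 against col-0 or complemented against csld5, and LFY, UFO, AP2, SHP1, SHP2, FUL and AGL6. CLV3, SPL3, SOC1, SVP and AGL24 were named after their values were seen. Beyond these, the 5 genes with the profile most like the mean of the 10 were named among genes with a mean log2 CPM of at least 1.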

Additional observations from a re-analysis of the deposited data

How the results depend on the processing

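In csld5 against col-0, 6 of the 10 genes were called, and 3 with the offset or with the offset and the replicate block. Of all genes, 41.5% were called, 32.9% with the offset and 32% with the offset and block. Leaving out 1 library gave 4 to 8, against 7403 to 9451 of all genes. With the offset it gave 2 to 4, against 5463 to 7103 of all genes. In complemented against csld5 the count was 6, 10 with library totals and 4 with the offset, against 40.9%, 42.3% and 26.3% of all genes. Leaving out 1 library gave 5 to 9, against 32.2% to 40.9% of all genes, and 3 to 4 with the offset, against 18.8% to 26.4%. In complemented against col-0 the count was 0 under every setting run. Over all genes, calls in complemented against csld5 fell from 9273 to 5939 with the offset and 5791 with the offset and block. In complemented against col-0 the 346 calls became 670 with DESeq2, 211 and 217 with limma on log2 TPM (pseudocounts of 1 and 0.1) and 137 without a TPM filter, and leaving out 1 library gave 139 to 461, or 192 to 596 with the offset. The cause of these moves was not tested.

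Directions turned for AG in complemented against csld5 with the offset (-0.2911) and with the offset and block (-0.2897), with -0.3385 to -0.2138 over libraries left out with the offset and 0.07175 to 0.2212 without it. CAL turned likewise (-0.04136 and -0.04286; -0.1071 to 0.03786, and 0.18 to 0.2806 without the offset). PI with the offset ran from -0.06997 to 0.04992 in csld5 against col-0 and from -0.0489 to 0.07082 in complemented against csld5, against -0.2955 to -0.1199 and 0.1817 to 0.3573 without it. AP3 in csld5 against col-0 ran from 0.07965 to 0.221 with it and from -0.1685 to 0.03212 without it. SEP1 kept its direction and calls in csld5 against col-0 and complemented against csld5 under all settings.

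TPM recomputed from counts gave col-0 levels of 465.7 (SEP3), 270.9 (PI), 238.0 (AP3), 208.4 (AP1), 170.7 (SEP2), 82.19 (AG), 67.0 (SEP1), 26.2 (SEP4), 20.9 (CAL) and 20.87 (STK). Fits of only the 2 genotypes compared called 4 of the 10 in csld5 against col-0, against 38.8% of all genes.

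Deviations of libraries with the same replicate number correlated at -0.106 to 0.196, so the numbers are not taken to pair the libraries. With the replicate number as a block, 7 of the 10 genes were called in csld5 against col-0, 6 in complemented against csld5 and 0 in complemented against col-0. Of all genes, 42.1%, 41.9% and 1.62% were called in these comparisons with the block. The block also brought AG past the threshold in csld5 against col-0 (-0.1898, edgeR adjusted p = 0.0471).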
